A study of Homo sapiens with 24 samples.

Results

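The genes of 7 SLAM family receptors, SLAMF1, SLAMF6, SLAMF7, CD84, CD48, LY9 and CD244, and of their adaptor SAP, SH2D1A, were followed through 2 B-lymphoma cell lines exposed to a SYK inhibitor, a BET inhibitor or both. They were picked by gene symbol from an array table of 25575 rows with 25161 different symbols, in which each of the 8 symbols had 1 row. SU-DHL-4 is a diffuse large B-cell lymphoma (DLBCL) line of the germinal centre type, and DG-75 is a Burkitt lymphoma (BL) line. Cultures of both received DMSO as solvent control, Entospletinib (Ento) at 1 µM, AZD5153 (AZD) at 0.01 µM, or these doses together (Ento+AZD), and RNA was taken after 72 h. SYK, the target of Ento, is the kinase recruited by the activated B-cell receptor. BET proteins, which AZD blocks at both bromodomains, read acetylated chromatin. Each of the 8 groups had 3 human Clariom D arrays with the replicate numbers 1 to 3, and each lymphoma type was represented by 1 line, so that line and lymphoma type cannot be told apart.

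SLAM family receptors are immunoglobulin-like proteins on the surface of blood cells. Most of them bind a copy of themselves on the neighbouring cell, so that a B cell and a T cell that carry the same receptor can hold on to each other, while CD48, which is anchored by a lipid and has no signalling tail, is the ligand of CD244. The tails of most of the other receptors recruit SAP, a small adaptor of T and NK cells that brings in the kinase FYN, while SLAMF7 signals through a related adaptor, the product of SH2D1B. In germinal centres, CD84 and SLAMF6 on B cells and on follicular helper T cells take part in stable contact between both cell types. In the RefSeq gene order, 7 of the 8 genes lie together on chromosome 1, in the order SLAMF6, CD84, SLAMF1, CD48, SLAMF7, LY9 and CD244, with 1 uncharacterised RefSeq locus, LOC124904439, between CD48 and SLAMF7, whereas SH2D1A lies on chromosome X.

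Promoter sequences are shown for 3 genes of this cluster, SLAMF1, CD48 and SLAMF6, as a description. A link between these sequences and the response to treatment was not tested. RefSeq promoter entries were found for 5 of the 8 genes; CD84, LY9 and SLAMF7 are named only. Each sequence holds the 250 bases before the RefSeq start of the gene in GRCh38.p14, 5′ to 3′ on the gene's own strand, and capitals mark GAGGAA, a core of the sites of the ETS factors PU.1 and SPIB.
SLAMF1, chr1:160647045-160647294, minus strand: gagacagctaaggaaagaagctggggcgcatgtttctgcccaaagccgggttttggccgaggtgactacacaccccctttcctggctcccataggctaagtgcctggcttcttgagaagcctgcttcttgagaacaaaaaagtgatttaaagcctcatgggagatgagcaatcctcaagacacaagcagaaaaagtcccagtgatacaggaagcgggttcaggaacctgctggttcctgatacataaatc
CD48, chr1:160711823-160712072, minus strand: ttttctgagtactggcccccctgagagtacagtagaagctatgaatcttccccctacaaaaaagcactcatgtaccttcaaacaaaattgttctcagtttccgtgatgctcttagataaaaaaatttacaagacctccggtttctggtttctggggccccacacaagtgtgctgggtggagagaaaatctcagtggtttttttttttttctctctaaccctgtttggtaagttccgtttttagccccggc
SLAMF6, chr1:160523256-160523505, minus strand: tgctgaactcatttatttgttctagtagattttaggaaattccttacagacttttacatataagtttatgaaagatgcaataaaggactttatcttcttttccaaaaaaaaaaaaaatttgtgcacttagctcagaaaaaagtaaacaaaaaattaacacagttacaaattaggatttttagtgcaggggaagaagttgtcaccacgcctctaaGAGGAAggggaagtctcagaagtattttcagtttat
GAGGAA was searched on both strands and occurred once in the SLAMF6 window, its first base 36 bases before the start, and in neither of the other 2. Of the members with an entry that is not printed, SH2D1A held it once, 202 bases before the start, and CD244 did not hold it. Among 35116 RefSeq promoter windows of this length, 23.6% held it. None of the 3 windows held TATAAA, the TATA box, on either strand, beside 10.7% of all windows. The GC content was 30.8% in the SLAMF6 window, 43.2% in that of CD48 and 50% in that of SLAMF1.

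All values are deposited log2 intensities after RMA normalisation, so that 1 unit is a doubling. Signals of different genes come from different probes and have no common scale, and levels are therefore compared between samples of 1 gene only. The median over all rows lay between 4.89 and 5.14 on every array, arrays of 1 group correlated with r between 0.981 and 0.993, and no 2 arrays were identical. Markers of B cells and of other blood cells were read as a check of the labels, each gene by itself, since their levels cannot be set against each other. Of the B-cell markers, CD79A, a chain of the B-cell receptor, had group means under DMSO of 12.09 for SU-DHL-4 and 11.32 for DG-75, PAX5 of 8.35 and 8.04, and MS4A1, the gene of CD20, of 11.57 and 7.12. Of the germinal centre B-cell markers, BCL6 had means of 11.75 and 11.38, and SERPINA9 of 9.53 and 3.85. The measured markers of T cells (7 of 8), NK cells (7) and myeloid cells (6) had group means under DMSO from 1.48 (KLRD1) to 6.17. The arrays read whole cultures, in which fewer cells of a kind and less RNA per cell cannot be told apart. A gene was called where the Benjamini-Hochberg adjusted p of the limma fit over all 25575 rows was under 0.05 and the change was more than 2-fold, that is over 1 on the log2 scale.

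**Figure D1:**
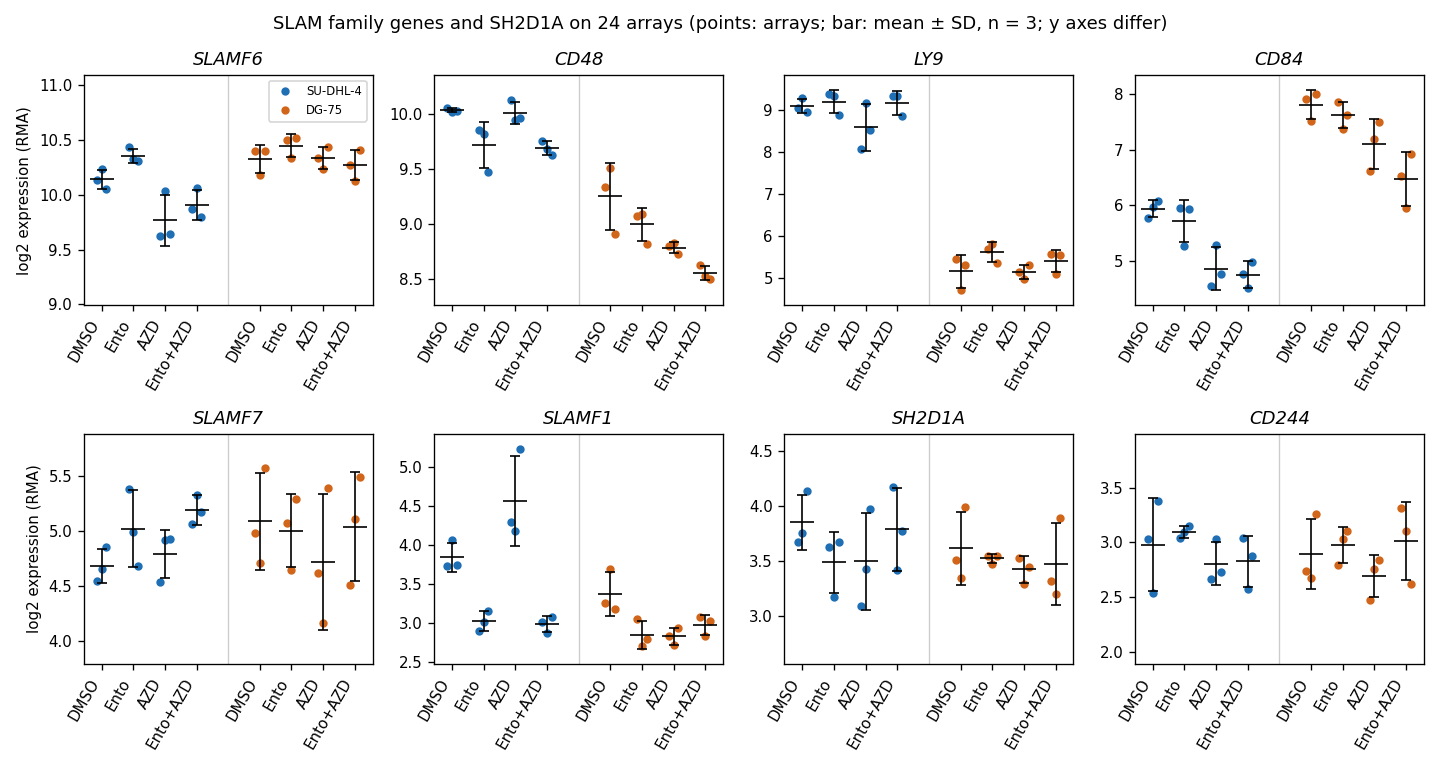
Log2 expression (y axis, RMA units, a different range in each panel) of the 8 genes in the 4 treatments of SU-DHL-4 (blue) and DG-75 (orange). Points are arrays and black bars are the mean ± SD of 3 arrays. LY9 separates the lines, the CD84 arrays with Ento+AZD lie under those with DMSO in both, and SLAMF1 has its highest arrays under AZD in SU-DHL-4.

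The lines were first compared under DMSO. LY9, a receptor that binds itself, was far higher in SU-DHL-4, and CD84 was higher in DG-75. CD48 was moderately higher in SU-DHL-4, and the other 5 genes did not pass the test. Of the 8 genes 2 were called, 1 higher and 1 lower in SU-DHL-4, where 7.20% of all rows were called, 3.10% higher and 4.11% lower. By adjusted p alone it was 3 of 8, where 17.6% of all rows passed.

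LY9 measured 9.04, 9.27 and 8.95 on the SU-DHL-4 arrays and 5.46, 4.73 and 5.32 on those of DG-75. The gap between the lines was several times wider than the spread within either. The difference was 3.92 on the log2 scale (SE 0.239, 95% interval 3.42 to 4.41), a 15.1-fold higher signal in SU-DHL-4 (adjusted p = 1.79e-11). Whether the LY9 probes read above background in DG-75 was not tested, and the fold is one of signals. Under the other treatments LY9 stayed apart as well, with every SU-DHL-4 array at 8.06 or more and every DG-75 array at 5.81 or less.

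CD84 measured 5.77, 5.97 and 6.08 in SU-DHL-4 and 7.91, 7.52 and 8.01 in DG-75 under DMSO. No SU-DHL-4 array reached the lowest DG-75 array. The signal was 3.67-fold lower in SU-DHL-4, a log2 difference of -1.88 (SE 0.257, 95% interval -2.41 to -1.34, adjusted p = 7.62e-06). Both calls, of LY9 and of CD84, were kept in each of 6 fits that left out 1 DMSO array.

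CD48, the lipid-anchored ligand of CD244, measured 10.06, 10.02 and 10.03 in SU-DHL-4 and 9.34, 9.51 and 8.91 in DG-75. The groups did not overlap, and the SU-DHL-4 arrays lay within 0.04 of each other. The log2 difference of 0.79 (SE 0.143, adjusted p = 0.000252) is 1.72-fold and stays under the fold threshold. SLAMF1 differed by 0.47 (SE 0.203, adjusted p = 0.130), with groups that did not overlap. SLAMF6 (-0.19, adjusted p = 0.418), SLAMF7 (-0.40, adjusted p = 0.394), CD244 (0.09, adjusted p = 0.848) and SH2D1A (0.24, adjusted p = 0.577) overlapped between the lines.

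**Figure D2:**
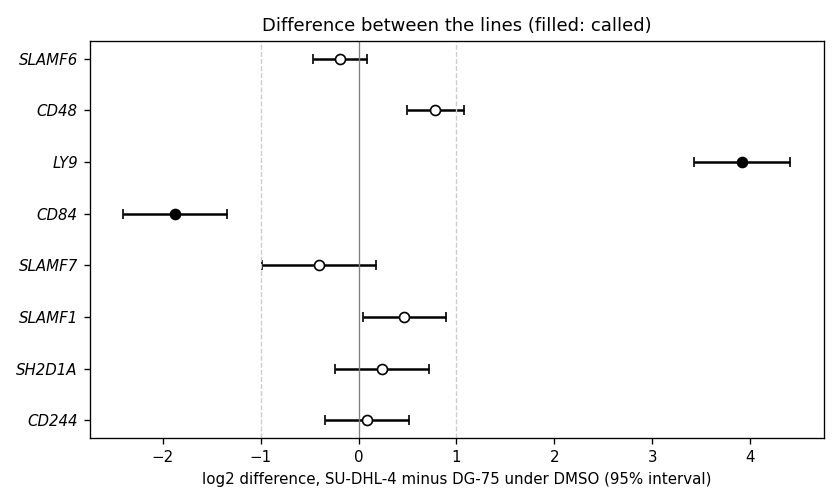
Log2 difference between SU-DHL-4 and DG-75 under DMSO (x axis) for the 8 genes, with 95% intervals of the limma fit; filled points were called and dashed lines mark 2-fold. LY9 stands at 3.92 and CD84 at -1.88, and CD48 is the remaining gene with an adjusted p under 0.05.

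The question of each treatment comparison was how a single agent or the pair moved these genes away from DMSO. CD84, a self-binding receptor of B cells and follicular helper T cells, fell with Ento+AZD in both lines and was the only one of the 8 that was called against DMSO. AZD alone gave CD84 values lower than DMSO in both lines without passing the test, and Ento alone left overlapping arrays. In SU-DHL-4, 1 of the 8 genes was called lower with Ento+AZD, where 1.09% of all rows were called lower and 1.19% in either direction. In DG-75 it was again 1 of 8, where 0.708% of all rows were called lower and 0.833% in either direction. The 3 treatments of a line share its DMSO arrays, so that their changes are not independent of each other.

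In SU-DHL-4, CD84 measured 5.77, 5.97 and 6.08 with DMSO, 5.95, 5.27 and 5.93 with Ento, 4.54, 5.28 and 4.75 with AZD, and 4.76, 4.50 and 4.99 with Ento+AZD. All arrays with AZD, alone or in the pair, lay under all DMSO arrays. With Ento+AZD the log2 change was -1.19 (SE 0.229, 95% interval -1.69 to -0.69, adjusted p = 0.0193), a 2.28-fold lower signal. With AZD it was -1.08 (SE 0.229, adjusted p = 0.0992) and with Ento -0.22 (SE 0.229, adjusted p = 0.834).

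In DG-75, CD84 measured 7.91, 7.52 and 8.01 with DMSO, 7.86, 7.38 and 7.63 with Ento, 6.61, 7.19 and 7.51 with AZD, and 6.53, 5.96 and 6.92 with Ento+AZD. The Ento+AZD arrays lay under all DMSO and all Ento arrays, and the highest AZD array came within 0.02 of the lowest DMSO array. The change with Ento+AZD was -1.34 (SE 0.224, 95% interval -1.84 to -0.85, adjusted p = 0.0214), a 2.54-fold lower signal. It was -0.71 (SE 0.224, adjusted p = 0.178) with AZD, or -0.40 without AZD replicate 1, and -0.19 (SE 0.224, adjusted p = 1) with Ento.

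The pair was also set against each single agent. Against Ento, Ento+AZD lowered CD84 in DG-75 by a log2 change of -1.15 (SE 0.224, adjusted p = 0.0316), 1 gene of 8 where 0.598% of all rows were called lower and 0.657% in either direction. In SU-DHL-4 the same comparison gave -0.97 (SE 0.229, adjusted p = 0.122), with 0 of 8 genes called where 0.0821% of all rows were called, and with 2 of 8 at an unadjusted p under 0.05 (9.67% of all rows). Against AZD, the addition of Ento left CD84 at -0.11 (95% interval -0.61 to 0.39) in SU-DHL-4 and at -0.63 (95% interval -1.13 to -0.14, adjusted p = 1) in DG-75. The departure of the pair from the sum of both single changes was 0.11 (95% interval -0.59 to 0.82) in SU-DHL-4 and -0.44 (95% interval -1.14 to 0.25) in DG-75, neither past the test.

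**Figure D3:**
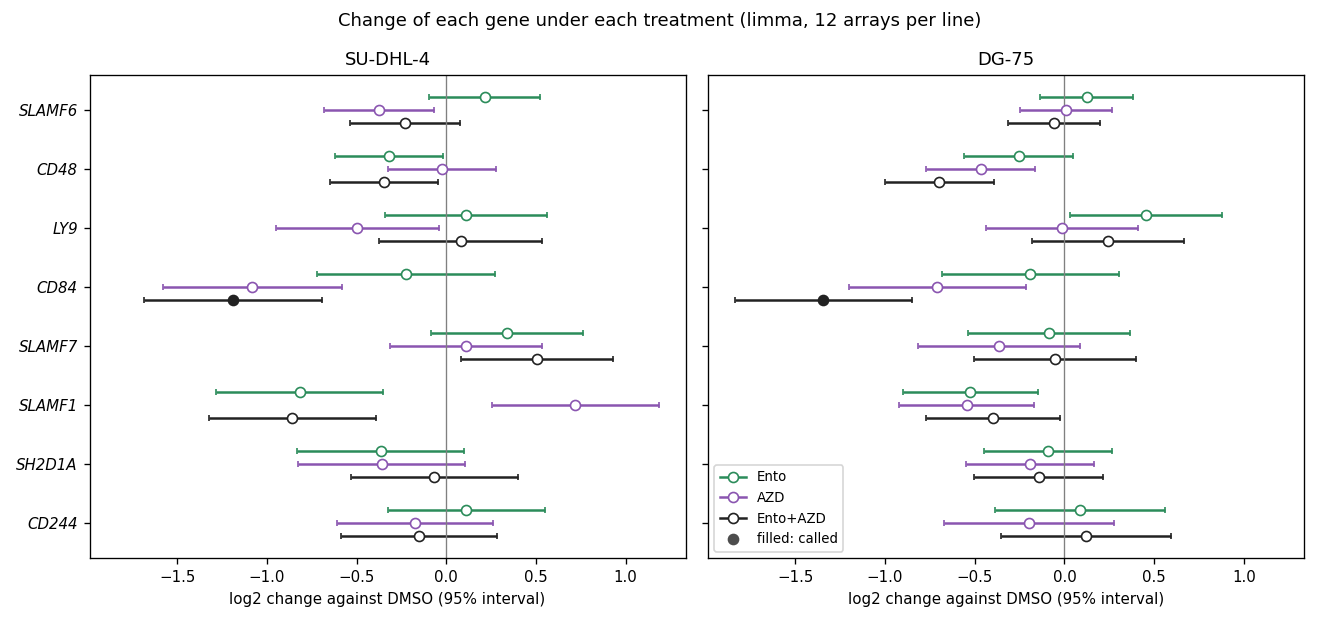
Log2 change against DMSO (x axis) of the 8 genes with Ento, AZD and Ento+AZD in SU-DHL-4 (left) and DG-75 (right), with 95% intervals of the limma fit of each line; filled points were called. The called points are those of CD84 with Ento+AZD, at -1.19 and -1.34.

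The CD84 calls within a line were close to the threshold. Leaving out 1 array of the groups compared, the change with Ento+AZD against DMSO stayed between -1.27 and -1.06 in SU-DHL-4, with adjusted p from 0.0477 to 0.133, and was called without DMSO replicate 1 but in none of the other 5 fits. In DG-75 it stayed between -1.47 and -1.16, with adjusted p from 0.0329 to 0.168, and was called without Ento+AZD replicate 3 but in none of the other 5 fits. The change against Ento in DG-75 stayed between -1.33 and -0.97, with adjusted p from 0.0255 to 0.214, and was called without Ento replicate 3 alone.

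The lines did not differ detectably in the CD84 response to Ento+AZD, with a difference of 0.15 (SE 0.342, 95% interval -0.56 to 0.87, adjusted p = 0.981). Averaged over both lines in a fit of all 24 arrays, CD84 was lower with Ento+AZD by a log2 change of -1.27 (SE 0.171, 95% interval -1.63 to -0.91, adjusted p = 0.000159), or 2.41-fold. This call was kept in all 12 fits that left out 1 array, with adjusted p between 0.000347 and 0.00120. It was 1 of 8 genes, where 0.817% of all rows were called lower and 0.860% in either direction. By adjusted p alone CD84, CD48 and SLAMF1 passed, 3 of 8 where 9% of all rows did, and nothing is read from SLAMF1 in this count, since its Ento+AZD arrays of SU-DHL-4 belong to a difference known when the genes were chosen. With AZD the mean change over both lines was -0.90 (SE 0.171, adjusted p = 0.00624), 1.86-fold and under the fold threshold, so that 0 of 8 genes were called beside 0.266% of all rows, with 1 of 8 at an adjusted p under 0.05 (4.93% of all rows) and 3 of 8 at an unadjusted p under 0.05 (18.2% of all rows). With Ento it was -0.21 (95% interval -0.57 to 0.15, adjusted p = 0.865), and again 0 of 8 genes were called, beside 0.0117% of all rows and with 2 of 8 at an unadjusted p under 0.05 (6.97% of all rows).

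**Figure D4:**
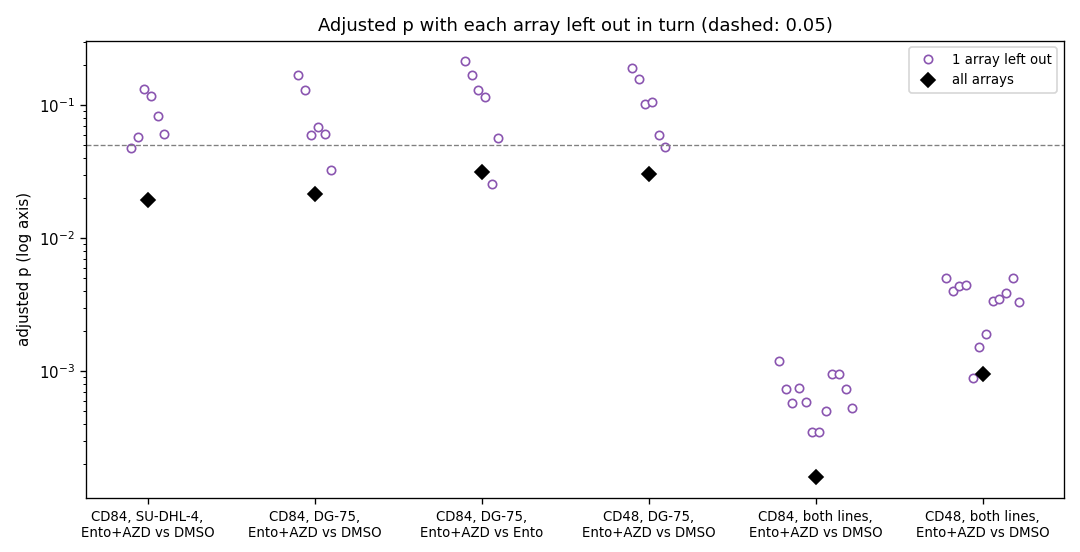
Adjusted p (y axis, log scale; dashed line at 0.05) of 6 changes of CD84 and CD48 with all arrays (black diamonds) and with 1 array of the groups compared left out in turn (open circles, 6 fits within a line and 12 over both lines). Within a line, at most 1 of 6 circles of a change is under the dashed line, whereas all 12 are for both averages over the lines.

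CD48 had a change below 0 with Ento+AZD in both lines, past an adjusted p of 0.05 in DG-75 but under the fold threshold. By adjusted p alone 2 of the 8 genes, CD84 and CD48, passed with Ento+AZD in DG-75, where 2.39% of all rows did. In DG-75 CD48 measured 9.34, 9.51 and 8.91 with DMSO, 9.08, 9.09 and 8.83 with Ento, 8.80, 8.83 and 8.73 with AZD, and 8.63, 8.53 and 8.51 with Ento+AZD. The Ento+AZD arrays were lower than every other DG-75 array. The change of -0.70 (SE 0.139, 95% interval -1.003 to -0.39, adjusted p = 0.0302) was 1.62-fold and so under the fold threshold, and in 1 of 6 fits with an array left out, that without Ento+AZD replicate 3, the adjusted p stayed under 0.05 (range 0.0489 to 0.191). With AZD it was -0.47 (adjusted p = 0.150) and with Ento -0.26 (adjusted p = 1).

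In SU-DHL-4, CD48 measured 10.06, 10.02 and 10.03 with DMSO, 9.86, 9.83 and 9.48 with Ento, 10.13, 9.95 and 9.97 with AZD, and 9.76, 9.69 and 9.63 with Ento+AZD. Here the arrays with Ento, alone or in the pair, lay under the DMSO arrays, while the AZD arrays overlapped them. The changes were -0.32 with Ento (SE 0.139, adjusted p = 0.557), -0.02 with AZD (adjusted p = 0.971) and -0.35 with Ento+AZD (adjusted p = 0.276), none past the test. The difference between the lines in the AZD change was 0.44 (SE 0.178, adjusted p = 0.741). Over both lines, Ento+AZD lowered CD48 by a log2 change of -0.52 (SE 0.0891, 95% interval -0.71 to -0.33, adjusted p = 0.000961), 1.44-fold, and the adjusted p stayed at or under 0.00504 with any 1 array left out.

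SLAMF1 encodes the receptor that gave the family its name, a self-binding protein of activated lymphocytes that is also an entry receptor of measles virus. Its signal ranged from 2.71 to 5.23 over the 24 arrays, and the highest arrays were those with AZD in SU-DHL-4. There it measured 3.73, 4.06 and 3.75 with DMSO, 2.90, 3.02 and 3.16 with Ento, 4.29, 4.18 and 5.23 with AZD, and 3.01, 2.87 and 3.08 with Ento+AZD. The AZD arrays lay above all DMSO arrays, and the arrays with Ento, alone or in the pair, lay under them. The difference between Ento+AZD and AZD, -1.58 on the log2 scale or 2.98-fold, was among the results known when these genes were chosen and is given as a description. Nothing is read from its call there, where 0.0274% of all rows were called in either direction and the SLAMF1 row itself made up the 0.00391% called lower. Whether the SLAMF1 probes read above background in the lower arrays was not tested, and the fold rests on these low signals. AZD replicate 3, the highest array, carried part of it, since the difference was -1.27 without that array and the gene was then no longer called, and it was also not called without any 1 of the other arrays of these groups except AZD replicate 2.

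Against DMSO, the change of SLAMF1 in SU-DHL-4 was -0.82 with Ento (SE 0.214, 95% interval -1.28 to -0.35, adjusted p = 0.319), 0.72 with AZD (SE 0.214, 95% interval 0.26 to 1.18, adjusted p = 0.216) and -0.86 with Ento+AZD (SE 0.214, 95% interval -1.32 to -0.39, adjusted p = 0.0595). None of these passed the test. In DG-75, SLAMF1 measured 3.26, 3.70 and 3.18 with DMSO, 3.05, 2.71 and 2.80 with Ento, 2.83, 2.73 and 2.94 with AZD, and 3.08, 2.83 and 3.03 with Ento+AZD. All arrays of the 3 treatments lay under the DMSO arrays, AZD included. The changes ran from -0.54 (AZD, adjusted p = 0.174) to -0.40 (Ento+AZD, adjusted p = 0.280), and Ento gave -0.52 (adjusted p = 1). Over both lines Ento+AZD changed SLAMF1 by -0.63 (SE 0.142, adjusted p = 0.00841), 1.54-fold and under the fold threshold, while the mean with AZD was 0.09 (95% interval -0.21 to 0.39). Nothing is read from these SLAMF1 tests where they use the AZD or Ento+AZD arrays of SU-DHL-4. Those arrays belong to the difference known when the genes were chosen.

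LY9 showed no call by treatment in either line. In SU-DHL-4 the AZD arrays measured 8.06, 9.17 and 8.53 beside 9.04, 9.27 and 8.95 with DMSO, a change of -0.50 (SE 0.209, adjusted p = 0.389) with overlapping groups. The Ento+AZD arrays, at 9.33, 9.33 and 8.84, overlapped the DMSO arrays as well, with a change of 0.08 (95% interval -0.37 to 0.54). In DG-75 the Ento arrays measured 5.71, 5.81 and 5.36 beside 5.46, 4.73 and 5.32 with DMSO. That change was 0.45 (SE 0.192, adjusted p = 1), and those with AZD and Ento+AZD were -0.01 and 0.24.

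SLAMF6 is a self-binding receptor of B, T and NK cells, and its DG-75 arrays ranged from 10.13 to 10.51 over all treatments. In SU-DHL-4 it measured 10.13, 10.23 and 10.05 with DMSO, 10.43, 10.33 and 10.30 with Ento, 9.63, 10.03 and 9.64 with AZD, and 9.87, 10.06 and 9.80 with Ento+AZD. The Ento arrays lay above and the AZD arrays under all DMSO arrays. The changes were small, 0.21 with Ento (SE 0.142, adjusted p = 0.709), -0.37 with AZD (SE 0.142, adjusted p = 0.339) and -0.23 with Ento+AZD (SE 0.142, adjusted p = 0.529), none past the test. In DG-75 the 95% intervals of the 3 changes together ran from -0.31 to 0.38.

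SLAMF7, a receptor abundant on plasma cells and the target of an antibody used in myeloma, measured 4.55, 4.65 and 4.85 with DMSO and 5.07, 5.33 and 5.18 with Ento+AZD in SU-DHL-4. These groups did not overlap, and the change was 0.51 (SE 0.195, 95% interval 0.08 to 0.93, adjusted p = 0.251). In DG-75 the arrays ran from 4.16 to 5.57 over all treatments, the widest spread within groups of any of the 8 genes (mean SD of the 4 groups 0.472), and the change with Ento+AZD was -0.05 (95% interval -0.50 to 0.40).

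CD244, the NK and T-cell receptor that binds CD48, ranged from 2.48 to 3.38 over all 24 arrays, and SH2D1A, the gene of SAP, from 3.09 to 4.17. Neither passed the test in any comparison. The 3 changes of CD244 against DMSO lay between -0.17 and 0.11 in SU-DHL-4 and between -0.20 and 0.12 in DG-75. For SH2D1A they lay between -0.36 and -0.07 in SU-DHL-4 and between -0.19 and -0.09 in DG-75.

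Taking the 8 genes by comparison, 0 were called with Ento in SU-DHL-4 (0.0508% of all rows called) and 0 in DG-75 (0.00391%), with 2 of 8 in each line at an unadjusted p under 0.05 (8.59% and 2.81% of all rows). With AZD 0 were called in either line (0.180% of all rows in each), with 4 and 3 of 8 at an unadjusted p under 0.05 (11.5% and 13.8% of all rows). SLAMF1 was among them in both lines. Nothing is read from it in SU-DHL-4, where its AZD arrays belong to the difference known when the genes were chosen. Ento+AZD against AZD in DG-75 gave 0 calls over the 8 genes and over all rows, with 1 of 8 at an unadjusted p under 0.05 (4.03% of all rows). The median change of the 8 genes with AZD was -0.27 for SU-DHL-4 and -0.28 for DG-75, beside -0.08 and -0.06 over all rows. With Ento+AZD it was -0.19 and -0.10, beside -0.08 and -0.07, and with Ento -0.06 and -0.09, beside -0.06 and -0.004. The departure from additivity gave 0 calls in either line, over the 8 genes and over all rows, with 1 of 8 in each line at an unadjusted p under 0.05 (4.99% of all rows in SU-DHL-4, 2.63% in DG-75). That gene was SLAMF1 in both lines, and nothing is read from it in SU-DHL-4, where the departure holds the difference between Ento+AZD and AZD that was known when the genes were chosen. The difference between the lines in their change gave 0 of 8 for Ento (0.00782% of all rows called), 0 of 8 for AZD (0 of all rows) and 0 of 8 for Ento+AZD (0.0352%). At an unadjusted p under 0.05 there were 0, 3 and 0 of 8, beside 4.43%, 6.16% and 6.51% of all rows. The 3 were SLAMF1, SLAMF6 and CD48, and nothing is read from SLAMF1, whose AZD arrays of SU-DHL-4 belong to the same known difference.

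The order of the 8 group means differed between genes. For CD84, all 4 DG-75 groups ranked above all 4 SU-DHL-4 groups, and in both lines the order was DMSO, Ento, AZD, Ento+AZD, with arrays of every neighbouring pair of groups overlapping. For CD48 the order in DG-75 was the same as for CD84, and the neighbours AZD and Ento+AZD did not overlap there. For LY9 the break lay between the lowest SU-DHL-4 group, AZD at 8.59, and the highest DG-75 group, Ento at 5.62. For SLAMF1 the upper 3 groups, AZD and DMSO of SU-DHL-4 and DMSO of DG-75, were each separate from the next, and the lower 5 overlapped from one neighbour to the next. For SLAMF6, SLAMF7, CD244 and SH2D1A every group overlapped its neighbour in the order.

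The genes whose pattern was most like that of a member were sought by Pearson's r over the 24 arrays after each line's mean was subtracted, and are given for the 4 members whose first match had the highest r. For CD84 they were SENP1 (r = 0.915), PRXL2A (0.913) and PTPA (0.900). For SLAMF6 they were MYRFL (0.878), CNR2 (0.856) and ISG20 (0.853), for LY9 FADS3 (0.877), PRKACB (0.840) and ARID1B (0.838), and for CD48 ISYNA1 (0.839), PLEK (0.826) and CYB5R2 (0.820). For the other 4 members the first match had r from 0.698 to 0.793. These are the highest of 25161 symbols, and the arrays of a group share their treatment and the same-numbered arrays their number.

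The other genes of the family and its adaptors, SLAMF8, SLAMF9, CD2, CD58 and SH2D1B, gave 0 calls against DMSO in either line, where 0.0508%, 0.180% and 1.19% of all rows were called with Ento, AZD and Ento+AZD for SU-DHL-4 and 0.00391%, 0.180% and 0.833% for DG-75. Under DMSO, CD58, the ligand through which T cells dock by CD2, was lower in SU-DHL-4 by a log2 difference of -2.03 (SE 0.462, adjusted p = 0.00252), with arrays from 2.02 to 2.47 in SU-DHL-4 and from 3.78 to 4.65 in DG-75. It was the 1 called of these 5 genes, where 7.20% of all rows were called and 4.11% lower. Whether the CD58 probes read above background in SU-DHL-4 was not tested.

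Of 22 signalling partners of the SLAM receptors, 1 was called with Ento+AZD for SU-DHL-4, where 1.19% of all rows were, and 0 for DG-75, where 0.833% were. That gene was PTPN6, which encodes the phosphatase SHP-1, with a change of -1.25 (SE 0.201, adjusted p = 0.00911), from arrays between 5.44 and 6.53 with DMSO to arrays between 4.44 and 4.98. Its call was lost when replicate 2 of DMSO or of Ento+AZD was left out and with no replicate block. DOK2, an adaptor that restrains RAS signalling, had an adjusted p of 0.0206 with a change of -0.94, under the fold threshold. With Ento or AZD alone 0 of the 22 were called in either line, where at most 0.180% of all rows were. The median change of the 22 with Ento+AZD was -0.01 for SU-DHL-4 and -0.04 for DG-75, beside -0.08 and -0.07 over all rows. Between the lines under DMSO, DOK2 was called higher (2.11, adjusted p = 1.05e-06) and PRKCQ, a protein kinase C, lower in SU-DHL-4 (-1.20, adjusted p = 0.0144), so that 2 of 22 were called where 7.20% of all rows were (PRKCQ in 3 of 6 fits that left out 1 DMSO array, not without DG-75 replicate 1 or 3 or SU-DHL-4 replicate 2), and 9 of 22 had an adjusted p under 0.05 where 17.6% of all rows did.

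Of 16 other surface genes for contact with T cells, CD80 was called in DG-75 with AZD, where 0.180% of all rows were, and CD80 and CD40 with Ento+AZD, where 0.833% were. CD80, a ligand of CD28, was lower with AZD (-1.60, SE 0.236, adjusted p = 0.0471) and with Ento+AZD (-1.48, SE 0.236, adjusted p = 0.0196), from arrays between 6.996 and 7.33 with DMSO to arrays between 5.26 and 5.83 with AZD and between 5.31 and 6.04 with Ento+AZD. With AZD its call was lost in all 6 fits that left out 1 array (-1.71 to -1.50, adjusted p 0.0791 to 0.364), as was that of every other row, and with array medians subtracted or quantile normalisation. With Ento+AZD it was kept in 2 of 6, without Ento+AZD replicate 2 or 3. CD40, the receptor of T-cell help, was higher with Ento+AZD (1.04, SE 0.184, adjusted p = 0.0215), from arrays between 6.79 and 7.02 to arrays between 7.53 and 8.31, and its call was kept in 2 of 6 such fits, without DMSO replicate 2 or Ento+AZD replicate 2. In SU-DHL-4, 0 of the 16 were called with any treatment, where at most 1.19% of all rows were, although with Ento+AZD CD40 (0.70) and CD72 (-0.77) each had an adjusted p of 0.0347. Averaged over both lines, CD80 was called lower with AZD (-1.12, adjusted p = 0.00172, where 0.266% of all rows were called; kept in 11 of 12 fits with 1 array left out, not without SU-DHL-4 AZD replicate 3) and with Ento+AZD (-1.19, adjusted p = 0.000265, where 0.860% were; kept in 12 of 12). The median change of the 16 with Ento+AZD was -0.15 for SU-DHL-4 and 0.17 for DG-75, beside -0.08 and -0.07 over all rows. Under DMSO 7 of the 16 were called between the lines, 5 higher and 2 lower in SU-DHL-4, where 3.10% and 4.11% of all rows were.

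The 24 measured genes beside the SLAM cluster on chromosome 1 gave 0 calls against DMSO in either line, where 0.00391% to 1.19% of all rows were called. Their median change with Ento+AZD was -0.13 for SU-DHL-4 and -0.07 for DG-75, beside -0.08 and -0.07 over all rows. Between the lines under DMSO, 3 of the 24 were called, all lower in SU-DHL-4 where 4.11% of all rows were, namely F11R (-1.94, adjusted p = 6.15e-08), TSTD1 (-1.66, adjusted p = 0.000996) and FCER1G (-2.92, adjusted p = 3.34e-05). ARHGAP30, higher in SU-DHL-4 (0.75, adjusted p = 0.00590), passed the adjusted p but not the fold threshold.

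Markers of B, T, NK and myeloid cells were counted in the same way with Ento+AZD, where 1.19% of all rows were called for SU-DHL-4 and 0.833% for DG-75, and the called ones were named after their values were seen. Of 7 T-cell markers 1 was called, CD247, lower in SU-DHL-4 (-1.02, adjusted p = 0.0121), and of 7 NK-cell and 6 myeloid markers 0 were called in either line. Of 7 B-cell markers 1 was called, CD79B, a chain of the B-cell receptor, higher in DG-75 (1.03, adjusted p = 0.0227). With 1 array left out, the call of CD247 was kept in 2 of 6 fits, without DMSO or Ento+AZD replicate 1, and that of CD79B in 1 of 6, without Ento+AZD replicate 3. The call of CD247 was also lost with quantile normalisation and with array medians subtracted. The median change with Ento+AZD over the B-cell markers was 0.15 for SU-DHL-4 and 0.44 for DG-75, and over the T-cell markers -0.27 and -0.26. Over the NK-cell markers it was -0.11 and -0.06, and over the myeloid markers -0.02 and 0.10, beside -0.08 and -0.07 over all rows. Averaged over both lines, 4 of 7 B-cell and 1 of 7 T-cell markers had an adjusted p under 0.05, where 9% of all rows did. Of the NK-cell and myeloid markers 0 did. The part of these markers in the changes of CD84 and CD48 was not tested.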

How the data were processed

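Total RNA of SU-DHL-4 and DG-75 cultures was copied through cDNA and cRNA into single-stranded cDNA. This cDNA was fragmented, labelled with biotin and hybridised to human Clariom D arrays. Per the labels and the study's methods, the authors normalised the arrays by RMA and mapped probe sets to genes with an annotation package, and the deposited values are log2 intensities, 1 row per probe set. The genome build of that annotation is not given in the sources used here, so that gene order and promoters were taken by symbol from RefSeq GRCh38.p14. No further normalisation was applied. limma 3.58.1 in R 4.3.3 (lmFit, eBayes) was fitted over all 25575 rows in each line apart (12 arrays), with treatment and the replicate number as a batch term. The study's model holds a batch term, but whether its batches are these numbers is not given in the sources used here. Differences between lines in response came from a fit of all 24 arrays with the number within each line, and the DMSO comparison from 8 group means without it. Calls needed a Benjamini-Hochberg adjusted p under 0.05 and a log2 change over 1, the study's thresholds. The mean over both lines was added after the data were seen.

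The 8 genes and the gene lists (5 other family genes, 22 signalling partners, 16 contact genes, 24 chromosomal neighbours, markers of B, germinal centre B, T, NK and myeloid cells) were chosen with earlier results of these data known, and all 8 genes are named. Some genes of these lists are not reported here. For likeness, the 3 genes with the highest r were taken, for the 4 of the 8 whose first match had the highest r. The study's methods speak in general of biologically independent samples, and nothing in the labels says whether same-group arrays came from separate cultures, so that p-values measure the spread between these arrays. The number of arrays limits the precision. Alternatives were the replicate term, the arrays fitted together, another scaling, a filter on low rows, the variance prior, the fold minimum and each array left out. The scripts were tested on simulated data.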

Additional observations from a re-analysis of the deposited data

Results flagged for a closer look

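SLAMF1 was singled out because its same-numbered differences between AZD and DMSO had opposite signs in the lines, although neither line's AZD change passed the test. The AZD arrays of SU-DHL-4 belong to the difference that was known when these genes were chosen. All 3 same-numbered differences from DMSO were above 0 in SU-DHL-4 (0.56, 0.12 and 1.48) and below 0 in DG-75 (-0.43, -0.97 and -0.24). The difference of the changes was 1.264 on the log2 scale (limma, SE 0.285), which did not pass the adjustment over all rows (adjusted p = 0.285).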

How the results depend on the processing

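No result turned its direction among called values. Under alternative settings, 145 of 156 counts of called genes stayed within 1.5 times of their value, 5 were lower and 6 higher. Most main counts were 0, so that most of the 145 were counts of 0 that stayed at 0. The call of CD84 with Ento+AZD against DMSO held in 9 of 9 settings for SU-DHL-4 (adjusted p 0.00443 to 0.0492), 9 of 9 for DG-75 (0.00184 to 0.0330) and 7 of 7 over both lines. Among these settings, that with no fold change minimum kept the main fit and could not lose a call. The counts that moved were these. With AZD in SU-DHL-4, the count went from 0 to 1, CD84, with 1 fit of all 24 arrays (adjusted p = 0.0495), with rows under the median mean left out (0.0493) and with a trended, robust variance prior (0.0318). For Ento+AZD against AZD in SU-DHL-4, it went from 1 to 0 with no replicate block, with only the arrays of the 2 groups compared, and with rows under the median left out, where the SLAMF1 row was no longer tested. In DG-75, the count for the pair against Ento went from 1 to 0 with only the arrays of the 2 groups compared (CD84, adjusted p = 0.159) and with array medians subtracted (0.0550). With no fold change minimum, the count rose from 1 to 2 in DG-75 (CD84 and CD48 with Ento+AZD, 2.39% of all rows) and, over both lines, from 0 to 1 with AZD (4.93%) and from 1 to 3 with Ento+AZD (CD84, CD48 and SLAMF1; 9%); under DMSO, 3 genes in place of 2 then passed between the lines (17.6%). Nothing is read from SLAMF1 in the count over both lines, as above. The causes of the moved counts were not tested.

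With each array left out in turn, the counts ranged from 0 to 1 for AZD, for Ento+AZD and for Ento+AZD against AZD in SU-DHL-4, in DG-75 for Ento+AZD against DMSO and against Ento, and for AZD over both lines; in the other 13 comparisons they did not move. CD84 with AZD in SU-DHL-4 was called without AZD replicate 2 (-1.41, adjusted p = 0.0115). Over both lines, CD84 with AZD passed the fold threshold without AZD replicate 2 of DG-75 (-1.005) or of SU-DHL-4 (-1.06).

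Subtraction of array medians moved the median of all rows by 0.13 for Ento+AZD against DMSO in SU-DHL-4; CD84 was then at -1.06 (adjusted p = 0.0312), and CD48 in DG-75 at -0.61 (adjusted p = 0.0712).

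Whether the replicate numbers mark the batches of the study's model is not given in the sources used here, and same-numbered arrays did not deviate together throughout. Their deviations correlated between -0.11 and 0.39 in SU-DHL-4 (12 of 18 over 0.1) and between -0.36 and 0.34 in DG-75 (7 of 18), and an array correlated best with its own number in 26 of 36 cases for SU-DHL-4 and 13 of 36 for DG-75. With no replicate block, CD84 with Ento+AZD stayed called in SU-DHL-4 (adjusted p = 0.0492) and DG-75 (0.0195), the count for Ento+AZD against AZD in SU-DHL-4 went from 1 to 0, and no other count changed. Over all rows, the calls with Ento+AZD went from 304 to 45 in SU-DHL-4 and from 213 to 208 in DG-75.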
